A study of Homo sapiens with 2 samples.

Results

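Mitotic CAL51 cells were taken as the 15% of CAL51 cells with the largest share of their transcripts on 8 mitotic genes. The genes were PLK1, CENPE, AURKA, CCNB1, CDC20, CENPF, HMMR and TPX2, and the share was the sum of their unique molecular identifiers (UMIs, each marking 1 captured transcript molecule) over all UMIs of the cell. This gave 161 cells among the 1071 CAL51 cells compared, and the other 910 CAL51 cells served as the comparison. The whole series holds 1683 cell barcodes. Because the rule takes a fixed share of cells, 15% is not a measured rate of mitosis.

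The series consists of single-cell transcriptomes of CAL51 and MDAMB468, 2 human cell lines of triple-negative breast cancer, a class of breast tumour without the hormone and growth factor receptors that define other classes. Cells of each line were captured by Drop-seq, which lyses single cells in oil droplets together with a barcoded bead and reads the polyadenylated RNA from one end. Each line was 1 library, and the labels name no treatment, genotype or culture replicate. Mitotic and other CAL51 cells therefore come from the same culture and the same library, and MDAMB468 cells enter below only where the same rule was applied to them. Cells are not replicates, so no p-value is given. Each interval printed is an exact 95% interval over numbers of UMIs or, for a share of cells, over numbers of cells, and covers counting error alone.

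During the cell cycle, DNA is copied in S phase and the copies are parted in mitosis. Cyclin-dependent kinase 1 with cyclins A and B drives entry, condensins compact the chromosomes, kinetochores attach them to the spindle, and the spindle checkpoint holds back the anaphase-promoting complex until every chromosome is attached. The genes for these proteins are transcribed together late in the cycle, from promoters that often carry a cell cycle homology region (CHR) and CCAAT boxes, to which the DREAM and MuvB complexes and the factor NF-Y bind. Transcript levels do not part late G2 cells from cells in mitosis, and "mitotic" is used here only for cells chosen by the rule.

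Promoter sequences are shown first because promoters of genes higher in mitotic CAL51 cells held these motifs in a larger share than those of all genes tested. The rule did not use sequence, but score genes held these motifs too, so the shares are description. RefSeq sequence of GRCh38.p14 was searched in the 250 bases before each gene's first listed start, on both strands, for CHR as TTTGAA or TTCGAA and for CCAAT. CHR was found in 68 of the 191 promoters of genes at least 1.5-fold higher (35.6%), in 9.91% of 6308 promoters of all genes tested and in 14.6% of all 27305 promoters. CCAAT was found in 62.8%, 36.7% and 33.0% of the same sets. Both motifs occurred together in 30.4%, 4.30% and 5.24%. Among the 56 promoters of genes at least 2-fold higher, 44.6% had CHR and 73.2% had CCAAT. Genes at least 1.5-fold lower had CHR in 10.2% and CCAAT in 45.3% of 128 promoters. Of the 8 score genes, 6 had a promoter, with CHR in 3 and CCAAT in 5. A match is a string of letters and not a binding site. Some windows lay inside the annotated gene. This held for all 120 bases before the listed start of GAS2L3, TNFAIP8L1, SGO2, KIF20A, CENPA and KIF18A. For NDE1 it held for 115 of the 120 bases. Among the 15 highest ratios, GAS2L3, TNFAIP8L1, SGO2 and NDE1 had neither motif, and all of these are among the genes just named. PIF1, PSRC1, DLGAP5, CENPA, KIF18A and ASPM had both, and KIF14, NEK2 and KIF20A had CCAAT alone. When the window of any listed start was searched, an option added after seeing the data, the share with CHR was 44.0% among the genes at least 1.5-fold higher and 13.9% among all genes tested.

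Below are the 120 bases before the start of 5 genes, written 5′ to 3′ on the gene's strand, with CHR and CCAAT matches of either strand in capitals. PIF1 had the highest ratio of all genes, ASPM and MKI67 are mitotic genes with both motifs, KIF14 is a mitotic gene with CCAAT alone, and H1-4 is a linker histone gene that was lower in mitotic cells. In MKI67, 1 CHR and 1 CCAAT match overlap. The last 21 bases of the PIF1 window and the last 25 of the ASPM window lie inside the gene's interval in GENCODE release 29, and the other windows lie outside it. The windows are chr15:64825648-64825767 (minus strand) for PIF1, chr1:197146670-197146789 (minus strand) for ASPM, chr10:128126424-128126543 (minus strand) for MKI67, chr1:200620752-200620871 (minus strand) for KIF14 and chr6:26156209-26156328 (plus strand) for H1-4.
PIF1: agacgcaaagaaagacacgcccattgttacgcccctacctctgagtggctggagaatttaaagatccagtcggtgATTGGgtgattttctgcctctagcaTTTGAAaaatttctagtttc
ASPM: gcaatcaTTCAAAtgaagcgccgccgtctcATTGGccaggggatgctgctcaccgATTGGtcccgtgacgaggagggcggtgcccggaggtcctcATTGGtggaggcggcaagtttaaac
MKI67: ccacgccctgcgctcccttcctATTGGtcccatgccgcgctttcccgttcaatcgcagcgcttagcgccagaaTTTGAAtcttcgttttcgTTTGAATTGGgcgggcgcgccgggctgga
KIF14: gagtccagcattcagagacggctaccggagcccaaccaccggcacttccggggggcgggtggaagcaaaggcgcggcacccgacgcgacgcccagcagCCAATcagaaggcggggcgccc
H1-4: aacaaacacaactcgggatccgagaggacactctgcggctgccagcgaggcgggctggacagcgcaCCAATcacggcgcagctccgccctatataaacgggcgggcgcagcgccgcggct
Counted from the first base of the transcript, CHR begins at -20 in PIF1 and at -113 in ASPM. KIF14 and H1-4 have their CCAAT match at -22 and -54 and no CHR match among the 250 bases.

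The cells chosen differed in depth and score as follows. Scores of mitotic CAL51 cells ran from 0.374% to 0.995% of UMIs, with a median of 0.467%, and those of the other cells from 0 to 0.373%, with a median of 0.134%. Scores were continuous across the limit. Counting 10 cells inwards from the limit gave a score of 0.379% and 10 cells outwards 0.366%, and 44 mitotic and 41 other cells lay within 10% of the lowest mitotic score. The group is thus a range of a score and not a separate cell type. Of the score genes, PLK1, a kinase of mitotic entry and exit, was at 226 CPM (UMIs scaled to the same total in each group or cell) in mitotic cells and 49.2 CPM in the others. CENPF, a kinetochore protein, was at 1572 and 587 CPM. These values chose the cells and are given as description. All 8 score genes were detected in 116 of the 161 mitotic cells and in 140 of the 910 others.

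**Figure D1:**
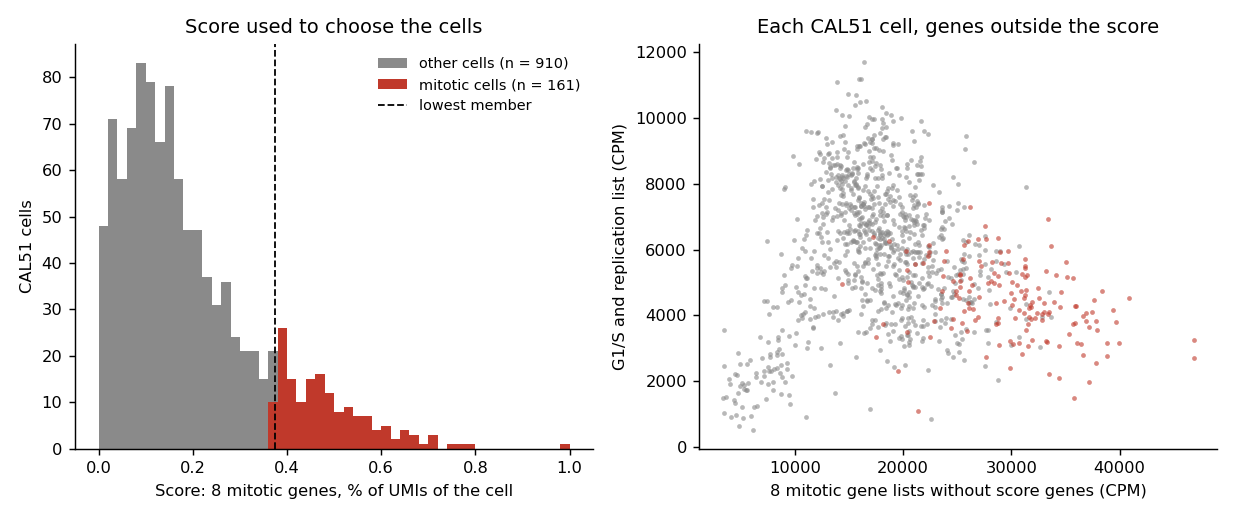
Left, number of CAL51 cells by score (share of UMIs on the 8 score genes, in percent), with a dashed line at the lowest mitotic score of 0.374%. Other cells are in grey, and mitotic cells in red are drawn over them, not stacked. Right, each CAL51 cell as a point by its summed CPM over 8 mitotic gene lists without the score genes (x axis) and over the G1/S and replication list (y axis). The mitotic cells lie towards the right and lower part of the cloud, and both clouds overlap.

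Mitotic CAL51 cells had a median of 12335 UMIs (range 5233 to 61275) and the other cells 10234 (5022 to 113702). They made up 20.6% of the deepest of 5 groups of cells cut by total UMIs (interval 15.4% to 26.6%) and between 11.6% and 15.02% of the other 4. With each cell thinned at random to 5000 UMIs, mitotic cells had a median of 2404 genes detected and the others 2362. Mitochondrial transcripts took a median of 3.94% and 4.20% of UMIs. No doublets were called or removed here, and the part of doublets in any result was not tested. Of the 1377 CAL51 barcodes, 297 with fewer than 5000 UMIs were left out. A further 9 deeper barcodes were left out because their sequences also occurred in the MDAMB468 library, where 31 of the CAL51 sequences were found in all. Keeping these 9 cells gave 162 mitotic cells and 215 higher and 169 lower genes.

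Genes that identify the line had similar levels in both groups. Of the 8 that mark CAL51, 0 were past 1.5-fold, beside 4.9% of all genes tested, so 0 of 8 is near that share. Their summed level in mitotic cells was 0.977 times that in the others (interval 0.963 to 0.991). GSTP1, a glutathione transferase, was detected in 161 of 161 mitotic and 910 of 910 other cells. Of 8 MDAMB468 genes, including the keratins KRT5, KRT7 and KRT14, 7 had 0 UMIs in the 161 mitotic cells, which allows up to 1.86% of cells with a UMI of each and sets no limit on cells that express it, and AZGP1 had 1. Of 7 measured markers of blood, endothelial and stromal cells, VWF, PTPRC, CD68 and DCN had 0 UMIs in mitotic cells and the whole list had 28, mostly of ACTA2 and PDGFRB. CD3E and LUM were not analysed here.

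Outside the score genes, 7750 genes had at least 200 UMIs in the CAL51 cells compared. UMIs were summed over each group and expressed as CPM, and a ratio is the CPM of mitotic cells over that of the other cells. In mitotic CAL51 cells 218 genes were at least 1.5-fold higher (2.81% of the genes tested) and 162 at least 1.5-fold lower (2.09%), together 4.9%. With TMM factors between both sums, a scaling that moved the median log2 ratio by -0.05, the split was 171 higher and 219 lower. Of the higher genes 66 passed 2-fold and 15 passed 3-fold. Of the lower genes 29 passed 2-fold and 10 passed 3-fold. Since the rule used this same contrast, these counts describe the cells and test nothing.

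The 8 lists of mitotic genes held 124 genes, of which 122 were tested. Of these, 76 were at least 1.5-fold higher (background 2.81%) and 0 were lower, with a median ratio of 1.70 beside 1.0 for all genes tested. Per cell, the summed level of these lists ran from 14344 to 46861 CPM in mitotic cells, with a median of 30159. In the other cells it ran from 3350 to 33677 CPM with a median of 17334. The groups overlapped: 10 other cells (1.099%) reached the mitotic median, and 2 mitotic cells lay at or below the other cells' median. Those 10 cells had scores of 0.270% to 0.372%, all below the limit of the rule. With every cell thinned to 5000 UMIs, a median of 66 of these genes had a UMI in mitotic cells (41 to 86) and 47 in the others (11 to 78). Free RNA in droplets can also give a UMI, and no share of it was measured here for these genes.

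**Figure D2:**
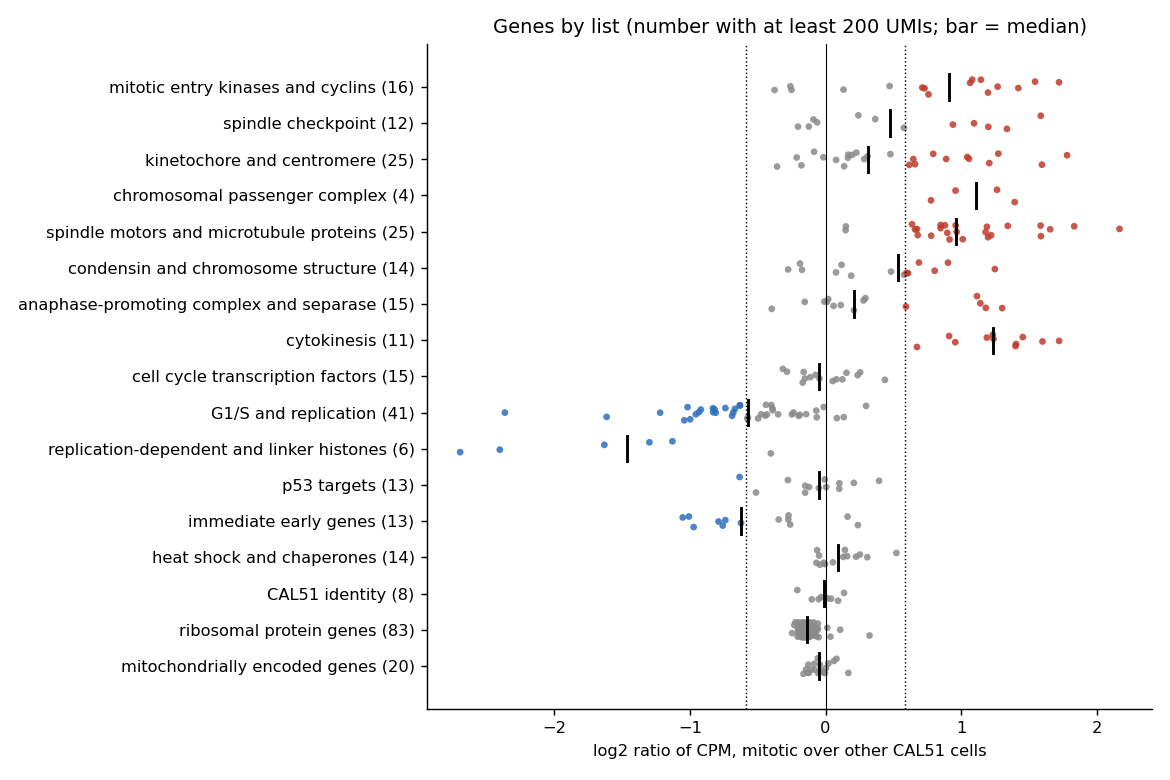
Each point is a gene with at least 200 UMIs, placed by the log2 ratio of its CPM in mitotic over other CAL51 cells (x axis) and by its list (y axis, number of genes tested in parentheses). Bars are list medians, dotted lines mark 1.5-fold, red genes are past it upwards and blue genes downwards. All 11 cytokinesis genes and all 4 chromosomal passenger genes are red, and 19 of 41 G1/S genes are blue.

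Genes of mitotic entry were mostly higher, with 11 of 16 past 1.5-fold and a summed ratio of 1.71 (interval 1.67 to 1.76). The cyclin gene CCNB2 was at 215 CPM in mitotic cells and 93.6 CPM in the others, a ratio of 2.29 (2.06 to 2.55). CCNA2, which encodes cyclin A, had a ratio of 2.12 (1.95 to 2.29). CDK1, the kinase these cyclins bind, had a smaller ratio of 1.66 (1.53 to 1.80), from 333 and 201 CPM. NEK2, a kinase of centrosome separation, had the highest ratio of the list at 3.30 (2.89 to 3.77). The phosphatase genes that activate CDK1 fell on both sides of the limit, with CDC25C at 2.92 and CDC25B at 2.68 but CDC25A at 0.84. PKMYT1, a kinase that inhibits CDK1, was at 0.77 (0.589 to 0.995), and WEE1, another such kinase, was at 1.64. MASTL, which restrains a phosphatase during mitosis, was at 0.84.

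Spindle checkpoint genes lay on both sides of the limit. Of 12 checkpoint genes tested, 5 were past 1.5-fold: TTK (3.01, interval 2.74 to 3.30), BUB1 (2.53), KNL1 (2.30), SPDL1 (2.14) and BUB1B (1.92). TTK, a checkpoint kinase, had 704 UMIs in mitotic and 1266 in other cells and was detected in 144 of 161 and 485 of 910. BUB3 lay just under the limit at 1.49 and MAD2L1 at 1.29. The remaining 5 genes, ZWINT, ZW10, ZWILCH, MAD2L1BP and TRIP13, were between 0.869 and 1.18. MAD1L1 had too few UMIs to be tested.

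Among 25 kinetochore and centromere genes, 11 were at least 1.5-fold higher. SGO2, a shugoshin that protects centromeric cohesion, led with 3.44 (3.07 to 3.85), and its partner gene SGO1 was at 1.57. CENPA, the histone variant that marks centromeres, was at 53.6 CPM in mitotic and 17.7 CPM in other cells, a ratio of 3.02 (2.41 to 3.77). HJURP, its chaperone, was at 2.08. In the NDC80 complex, which binds microtubules, NDC80 was at 2.42, NUF2 at 2.31 and SPC25 at 1.58, while SPC24 was at 1.12. The 4 genes of the MIS12 complex stood between 0.78 (DSN1) and 1.22 (PMF1). Most constitutive centromere genes tested, CENPH, CENPK, CENPM, CENPN, CENPU and CENPW, were between 0.863 and 1.17, with CENPI at 1.85 as the exception. Genes of 1 structure thus lay on both sides of the limit.

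All 4 genes of the chromosomal passenger complex, which corrects faulty attachments, were past 1.5-fold. Their ratios ran from 1.71 for BIRC5 (1.58 to 1.86) over 1.94 for AURKB and 2.40 for INCENP to 2.63 for CDCA8 (2.35 to 2.94). AURKB, the kinase of the complex, was at 169 CPM in mitotic cells and 87.0 CPM in the others.

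Spindle motors and microtubule proteins included 23 genes past 1.5-fold among 25, with a summed ratio of 1.97 (1.93 to 1.998). At the level of single cells this list overlapped least of the 8, since 0.659% of other cells reached the mitotic median of 7964 CPM. PSRC1, a spindle protein of chromosome 1 (chr1:109279556-109283186), had 257 UMIs in mitotic cells and 309 in the 910 others. Its levels were 108 CPM (95.5 to 122) and 24.1 CPM (21.5 to 27.0), a ratio of 4.50 (3.79 to 5.32). KIF14, a kinesin of the midzone, had a ratio of 3.57 (3.21 to 3.96), DLGAP5, a spindle assembly factor, 3.15 (2.93 to 3.40) and KIF18A, a kinesin that restrains chromosome movement, 3.01 (2.63 to 3.43). ASPM, a protein of the spindle poles, was at 508 and 169 CPM, a ratio of 3.003 (2.80 to 3.22). The 2 genes below the limit were NUMA1 and STMN1, both at 1.11.

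Condensin genes followed the complex to which they belong. The condensin I subunits NCAPG, NCAPD2 and NCAPH were at 1.75, 1.52 and 1.51, and the condensin II subunits NCAPD3, NCAPG2 and NCAPH2 at 0.89, 1.09 and 0.83. The shared subunits SMC4 and SMC2 were at 1.40 and 1.14. TOP2A, the topoisomerase that untangles sister chromatids, had the highest ratio of the list at 2.38 (2.28 to 2.48), with 2984 UMIs in mitotic and 6785 in other cells. MKI67, the antigen of the Ki-67 stain and a chromosome surface protein, was at 1.87 (1.79 to 1.95). A UMI of MKI67 was found in 821 of 910 other cells.

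Among genes of the anaphase-promoting complex and of separase, 5 of 15 were past 1.5-fold, and they were mainly its partners and targets. UBE2C and UBE2S, the ubiquitin-conjugating enzymes of the complex, were at 2.47 (2.32 to 2.62) and 2.27 (1.91 to 2.68). PTTG1, the securin that is its target, was at 2.17 (2.03 to 2.31) and ESPL1, the separase it inhibits, at 2.21 (1.64 to 2.94). Of the core subunits only CDC27 passed, at 1.51 (1.34 to 1.69), and this gene has closely similar copies whose reads may be divided. The other core subunits measured were between 0.899 and 1.23. FBXO5, an inhibitor of the complex before mitosis, was at 0.76 (0.662 to 0.868).

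All 11 cytokinesis genes were past 1.5-fold, the list with the highest summed ratio (2.20, interval 2.13 to 2.28). The range went from ANLN at 1.596 (1.48 to 1.72) to PIMREG at 3.30 (2.84 to 3.83). KIF20A, a kinesin of the central spindle, was at 116 and 38.4 CPM, a ratio of 3.03 (2.61 to 3.52). CEP55, which acts at abscission, was at 2.65 and PRC1, which bundles midzone microtubules, at 2.36.

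Among transcription factors of the cycle, 0 of 15 tested were past 1.5-fold in either direction (background 4.9%). Their summed ratio was 0.984 (0.936 to 1.03). FOXM1, an activator of G2 and mitotic genes, was highest at 1.35 (1.16 to 1.58), from 86.5 and 63.8 CPM, and at 1.66 when the 10% of cells with the highest scores were taken. MYBL2, which joins MuvB in S phase, was at 0.80 (0.610 to 1.05).

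PIF1 and some others of the 15 highest genes were outside the lists. PIF1 (chr15:64815632-64825668), a DNA helicase, had 188 UMIs in 161 mitotic cells and 220 UMIs in 910 others. These were 79.3 CPM (68.4 to 91.5) and 17.2 CPM (14.97 to 19.6), a ratio of 4.62 (3.78 to 5.64). No mitotic cell held more than 7 of these UMIs and no other cell more than 10. GAS2L3, a linker of actin and microtubules, had a ratio of 3.92 (3.20 to 4.79), TNFAIP8L1 of 3.50 (2.69 to 4.53) and NDE1, a partner of dynein, of 3.12 (2.42 to 4.02). After thinning to 5000 UMIs, a UMI of PIF1 was seen in 27.3% of mitotic and 5.71% of other cells. DLGAP5 was seen in 89.4% and 42.2%. The rest of the 218 higher genes included 142 in none of the lists.

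**Figure D3:**
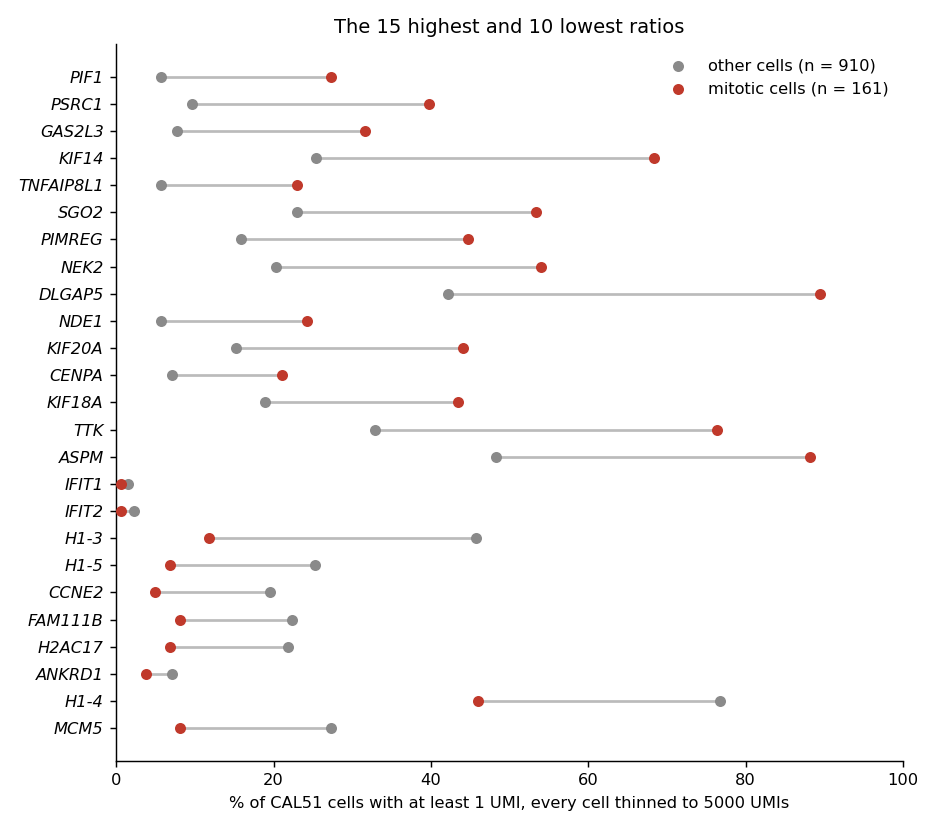
Share of CAL51 cells with at least 1 UMI after every cell was thinned to 5000 UMIs (x axis, percent), for the 15 genes with the highest and the 10 with the lowest ratio (y axis). Grey points are the other cells and red points the mitotic cells. PIF1 stands at 27.3% against 5.71%, CCNE2 at 4.97% against 19.6%.

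Genes of G1/S and DNA replication were lower in mitotic CAL51 cells. Of 41 tested, 19 were at least 1.5-fold lower (background 2.09%) and 0 higher, with a median ratio of 0.672 and a summed ratio of 0.752 (0.737 to 0.768). CCNE2, a cyclin of S phase entry, had 21 UMIs in mitotic and 585 in other cells, a ratio of 0.194 (0.119 to 0.299). CCNE1 was at 0.528 (0.325 to 0.820). Among the helicase subunits, MCM5 was at 0.326 (0.240 to 0.434), MCM6 at 0.494, MCM4 at 0.515 and MCM2 at 0.629 (0.548 to 0.720), whereas MCM3 at 0.672 and MCM7 at 0.785 did not pass. PCNA, the sliding clamp, was at 226 and 398 CPM, a ratio of 0.567 (0.518 to 0.620). UNG, which removes uracil from DNA, was at 0.429 and UHRF1, which keeps methylation on copied DNA, at 0.485. CCND1, the G1 cyclin, was the highest of the list at 1.23 (1.16 to 1.31). Per cell, the list ran from 1101 to 7411 CPM in mitotic cells (median 4386) and from 499 to 11699 CPM in the others (median 6084). The ranges overlapped, but 2 of 161 mitotic cells (1.24%) stood above the upper quartile of all cells and 74 (46.0%) below the lower quartile.

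Histone genes showed the lowest summed ratio of the lists, 0.381 (0.369 to 0.394). Of 18 genes in this list 6 had enough UMIs, and 5 of these were past 1.5-fold lower (background 2.09%). Most histone transcripts of S phase end without a poly(A) tail, so a polyadenylated library holds only a part of them, and close copies share reads. H1-3, a linker histone, had 93 UMIs in mitotic and 3257 in other cells, a ratio of 0.154 (0.124 to 0.190). H1-5 was at 0.189, H1-4 at 0.323, H4C3 at 0.406 and H1-2 at 0.457, and H2AC20 at 0.756 did not pass. H2AC17, outside the list, was at 0.259 (0.181 to 0.361).

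Mitotic cells were not uniform in this respect. H4C3, a histone H4 gene, ran from 0 to 12612 CPM in single mitotic cells with a median of 458, and from 0 to 12216 CPM in the others with a median of 2542. Of the mitotic cells, 91 (56.5%) stood below the lower quartile of all CAL51 cells for H4C3 and 14 (8.70%) above the upper. Those 14 cells had a median of 30007 CPM over the mitotic lists, beside 30159 CPM for all mitotic cells, and of 3823 CPM over the G1/S list, beside 4442 CPM for the remaining mitotic cells. When mitotic cells were cut into 3 groups by score, 2 of them were in the top group, 3 in the middle and 9 in the bottom group.

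Along the whole score the lists followed different courses. The 1071 cells were cut into 10 groups of nearly equal size, numbered from the lowest score. The spindle motor list was at 2196 CPM in group 1 and 8439 CPM in group 10. PSRC1 was at 7.43 and 129 CPM in these groups. The histone list had 1402 CPM in group 1, its highest level of 5716 CPM in group 5 and 1363 CPM in group 10. The G1/S list was at 4383 CPM in group 1, highest at 6737 CPM in group 3 and at 4494 CPM in group 10. The limit of the rule lay in group 9, which held 54 mitotic cells. Since score and lists are shares of the same UMIs, these courses are description.

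**Figure D4:**
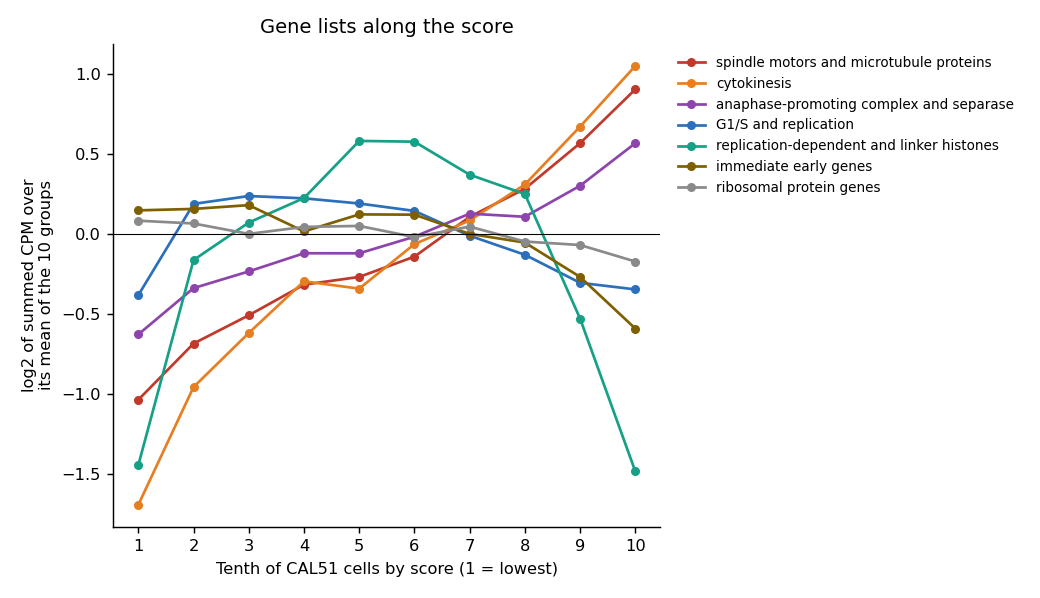
Summed CPM of 7 gene lists in 10 groups of CAL51 cells by score (x axis, 1 the lowest), as log2 over the list's mean across the 10 groups (y axis). Cytokinesis, spindle motor and anaphase-promoting complex lists are highest in group 10. The histone list is highest in group 5, at 5716 CPM, and the G1/S list in group 3, at 6737 CPM.

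Within mitotic cells, cut into 3 groups by score, every mitotic list was higher in the top group than in the bottom group. Some single genes were higher as well. From top to bottom, the cytokinesis list was at 2452, 2199 and 1832 CPM and the mitotic entry list at 3160, 2853 and 2720 CPM. The spindle motor list was at 8841 CPM (8622 to 9065) in the top group of 54 cells, 8097 CPM in the middle group of 54 and 6929 CPM (6750 to 7112) in the bottom group of 53. KIF18A was at 208 CPM (175 to 244) in the top and 95.8 CPM (75.7 to 120) in the bottom group. FOXM1 was at 115 CPM in the top group and 52.8 CPM in the bottom. CENPA differed less than its counting intervals, with 52.98, 55.9 and 51.6 CPM. Ribosomal protein genes ran the other way, with 107082, 116566 and 123848 CPM. From top to bottom, the median depth was 12464, 12447.5 and 11712 UMIs. The score that chose the mitotic cells also cut these groups, so their levels are description.

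Immediate early genes, which respond within minutes to growth factors or stress, were lower in mitotic CAL51 cells. Of 13 tested, 7 were at least 1.5-fold lower (background 2.09%) and 0 higher, with a summed ratio of 0.672 (0.644 to 0.701). JUN had 27 UMIs in mitotic and 303 in other cells, a ratio of 0.482 (0.312 to 0.715). FOSB was at 0.497, CCN2 at 0.509, CCN1 at 0.579, DUSP1 at 0.591, EGR1 at 0.599 and FOS at 0.649 (0.584 to 0.720). KLF6 and MYADM were at 1.12 and 1.18.

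Other programmes held few genes past the limit. Of 13 p53 targets tested 1 was past the limit downwards (background 2.09%), BTG2 at 0.644 (0.443 to 0.912), and CDKN1A, the p21 inhibitor of cyclin-dependent kinases, was at 31.6 and 31.8 CPM, a ratio of 0.996 (0.768 to 1.28). With a score from 5 of the 8 genes, CDKN1A was at 0.463, so its level depended on how cells were chosen. Over the 10 groups by score, CDKN1A was at 129 CPM in group 1 and 26.5 CPM in group 10. The groups between ran from 14.6 to 39.0 CPM, so the level of the other cells was not even. Of 14 heat shock and chaperone genes 0 passed in either direction (background 4.9%), and DNAJB1 was highest at 1.44 (1.29 to 1.599). Of 83 ribosomal protein genes 0 passed (background 4.9%), with a median of 0.907 and a range of 0.843 to 1.25. Of 20 mitochondrially encoded genes 0 passed (background 4.9%). For the short heat shock and mitochondrial lists, 0 lies near the share over all genes. For genes that mark cell states of CAL51, the summed ratio was 1.003 (0.890 to 1.13) for COL3A1, COL2A1 and NTS, 0.849 (0.803 to 0.897) for APOE and APOC1, and 0.983 (0.832 to 1.16) for PTGDS, ADAMTS8 and COL1A2. Single genes of these sums differed: NTS was at 1.20 and COL2A1 at 0.778, and COL3A1 had only 5 and 60 UMIs. PTGDS was at 1.47 (1.06 to 1.999) and at 1.73 (1.25 to 2.38) without the cell with the most of its UMIs, and COL1A2 was at 0.857.

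Some of the lowest ratios rested on few cells. IFIT1, an antiviral gene induced by interferon, had 4 UMIs in mitotic and 198 in other cells, a ratio of 0.109 (0.0295 to 0.284), and IFIT2 had 7 and 268, a ratio of 0.141 (0.0562 to 0.295). The 5 cells with the most UMIs held 76.2% of all IFIT1 UMIs and 84% of all IFIT2 UMIs, and none of them was mitotic. Since mitotic cells were 161 of the 1071 compared, 5 cells are too few to show a lack of mitotic cells. Without those 5 cells the ratio was 0.487 (0.127 to 1.34) for IFIT1 and 1.02 (0.383 to 2.31) for IFIT2, so both intervals then included equal levels. ANKRD1, at 0.269 (0.183 to 0.384), was at 0.433 (0.292 to 0.621) without its 5 highest cells. For CCNE2 and H1-3 the ratios without the 5 highest cells were 0.200 and 0.164.

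The same score and share were applied to MDAMB468, whose cells had no part in choosing the CAL51 cells, but barcode sequences shared with CAL51 were kept there. This gave 32 of 212 cells, of which 7 had such a shared sequence. Their lowest score was 0.334% of UMIs. At 200 UMIs or more, 4071 genes were tested, of which 174 were higher (4.27%) and 127 lower (3.12%) by 1.5-fold, together 7.39%. With TMM factors, which moved the median log2 ratio by -0.11, the split was 121 and 203. Of 91 genes of the 8 mitotic lists tested in MDAMB468, 60 were higher and 0 lower, with a median ratio of 1.92 beside 0.998 for all genes. Without shared sequences, an alternative added after seeing the data, 27 of 181 cells were taken and 2523 genes were tested. Then 111 genes were higher, 72 of them also higher before, and 112 lower, 42 of them also lower before. Of 64 mitotic genes then tested 48 were higher and 1, CENPU, was lower at 0.527 (0.380 to 0.714). Neither line has a second library, so differences between lines were not tested.

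Of 3832 genes tested in both lines, 97 were higher in mitotic CAL51 cells (2.53%), 166 in mitotic MDAMB468 cells (4.33%) and 80 in both, which is 82.5% of the CAL51 and 48.2% of the MDAMB468 genes. Lower genes numbered 55 (1.44%), 106 (2.77%) and 21 in both, 38.2% and 19.8%. Without shared sequences in MDAMB468, 2412 genes were tested in both, with 52 higher in both (92.9% of 56 CAL51 and 50.98% of 102 MDAMB468 genes) and 13 lower in both (48.1% of 27 and 12.7% of 102). Another 121 higher genes of CAL51, PIF1 and GAS2L3 among them, had too few UMIs in MDAMB468 to be tested. Across these 3832 genes the log2 ratios of both lines had a Pearson correlation of 0.58 and a Spearman correlation of 0.39, and over the 91 mitotic genes 0.89 and 0.90. Without shared sequences they were 0.63 and 0.44 over 2412 genes and 0.88 and 0.85 over 64 mitotic genes. Genes are not independent replicates, and both lines shared the rule.

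Single genes compared as follows. DLGAP5 was at 3.15 in CAL51 and 4.23 (3.66 to 4.88) in MDAMB468, and PSRC1 at 4.50 and 3.62 (2.77 to 4.73). TTK was at 3.01 (2.74 to 3.30) and 2.23 (1.91 to 2.59). H1-3 had the most unlike ratios of the histones tested in both lines, 0.154 (0.124 to 0.190) and 0.652 (0.552 to 0.766). In MDAMB468, 1 mitotic cell held 41 of the 169 H1-3 UMIs of mitotic cells, and 1 other cell held 83 of 1227. FOS and EGR1 were at 0.649 and 0.599 in CAL51 but at 1.06 (0.930 to 1.20) and 1.20 (0.976 to 1.45) in MDAMB468. For EGR1, 1 mitotic MDAMB468 cell held 41 of the 127 UMIs of mitotic cells, and for FOS 1 held 40 of 299. Among other MDAMB468 cells the most in 1 cell was 26 of 503 and 50 of 1338. Ratios without such cells were not computed in MDAMB468. In MDAMB468, 2 of 12 immediate early genes were past 1.5-fold lower (background 3.12%), and the summed ratio of the list was 0.885 (0.849 to 0.922). The 2 genes past 1.5-fold in opposite directions were ASF1B, a histone chaperone, at 0.650 and 1.53, and STK26, a kinase, at 0.580 and 1.504. Without shared sequences the MDAMB468 ratio was 5.29 for DLGAP5, 3.94 for PSRC1, 2.03 for TTK, 0.561 for H1-3, 1.14 for FOS and 1.0098 for EGR1. It was then 1.31 (0.877 to 1.90) for ASF1B and 1.73 (1.23 to 2.38) for STK26. ASF1B, with 35 UMIs in mitotic and 145 in other MDAMB468 cells, then had too few UMIs to be tested. The same held for PSRC1, with 48 and 66 UMIs.

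**Figure D5:**
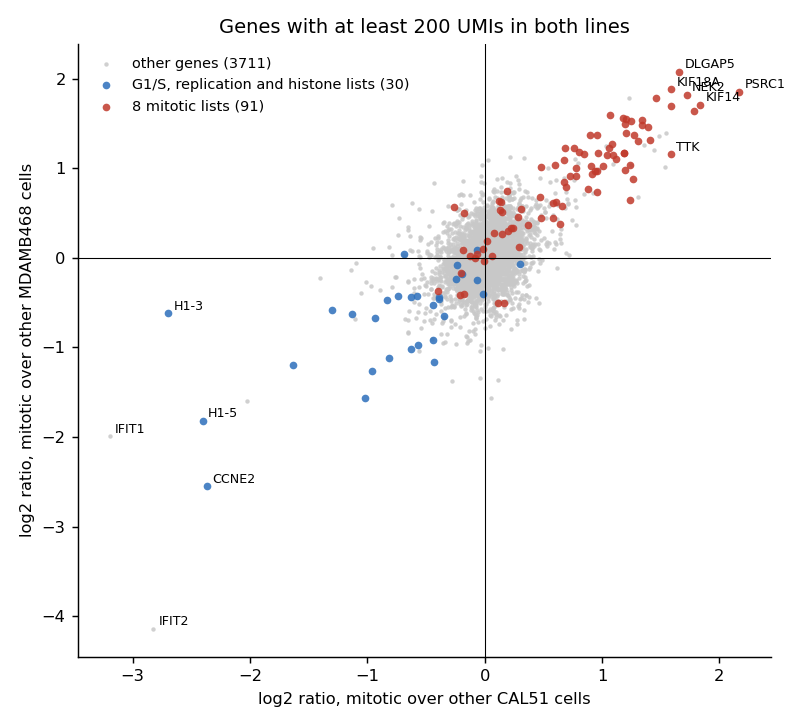
Each point is a gene with at least 200 UMIs in both lines, by its log2 ratio of mitotic over other cells in CAL51 (x axis) and in MDAMB468 (y axis). Red points are the 91 genes of the 8 mitotic lists, blue points the 30 genes of the G1/S and histone lists and grey points all others. Most red points lie in the upper right, and H1-3, at a ratio of 0.154 in CAL51 and 0.652 in MDAMB468, lies off the line of equal ratios.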

How the data were processed

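Drop-seq libraries of 2 human cell lines, 1 library per line, were available as raw UMI counts deposited by the authors, whole numbers for each gene in each barcode. STARsolo is named in the submitters' processing notes. Not given in the sources used here: its version and settings, the genome build, the annotation and the use of strand. The lowest deposited total was 2501 UMIs, the files hold 30796 genes and 1683 barcodes, and 0 other columns of per-sample values were present. Of the identifiers, 23687 were matched to a symbol and 29416 were placed by GENCODE release 29 on GRCh38, which gives the coordinates printed for genes.

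CAL51 cells had at least 5000 UMIs and a barcode sequence absent from MDAMB468. Counts were summed over mitotic and over other cells and scaled to CPM, and ratios carry exact conditional 95% intervals that cover counting error only. Summed UMIs were 2370951 in mitotic and 12814810 in other cells. With 1 library per line there is no replicate and no p-value. Genes with at least 200 UMIs were tested against a limit of 1.5-fold, without the score genes. A count of 0 allows up to 3 counts. Cells were also thinned once to 5000 UMIs with a fixed seed. The calculations were tested on simulated data.

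Named genes were the 15 highest and 10 lowest ratios (without score, mitochondrial, ribosomal protein, antisense, LINC and dotted symbols), the highest and lowest member of each list with at least 100 UMIs, and 20 set genes. Other genes named are list members, or genes singled out after their values were seen. The mitotic cells, lists and genes were chosen with earlier results of these data known. Alternatives changed the share of cells taken, minimum UMIs, score, scaling, weights, filter, fold and pseudocount. Leaving out very deep cells or the cells with the most UMIs of a gene, searching any listed start, and leaving shared barcodes out of MDAMB468, were added after seeing the data. Promoters came from RefSeq (GRCh38.p14). TTK, UBE2C and BIRC5 were not matched there. R 4.3.3 with edgeR 4.0.16 gave TMM factors only, and all else was done in Python 3.11.15 with scipy 1.17.1, numpy 2.4.6, matplotlib 3.10.9 and pandas 2.3.3.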

Additional observations from a re-analysis of the deposited data

How the results depend on the processing

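No paired analysis was possible because each line was 1 library, and for the same reason no replicate could be left out. Of 41 named genes with at least 200 UMIs past 1.5-fold, 38 were past it in every setting run, and BTG2, MCM2 and IFIT2 were not. Of 1072 ratios of all 67 named genes over 16 settings, 69 lay outside the main counting interval. Among the 41 genes 1 changed direction, IFIT2 at 1.02 without its 5 highest cells, and among the other 26 named genes ACTA2, APOE, CDKN1A and PHLDA3 had ratios on both sides of 1. Counts of genes moved with the limits. In CAL51, higher and lower genes numbered 139 and 106 with counts thinned to 5000 UMIs, 530 and 657 at 50 UMIs per gene, 120 and 55 at 500 UMIs, and 66 and 29 at 2-fold. In MDAMB468 they numbered 27 and 35, 753 and 632, 50 and 28, and 60 and 26. MDAMB468 also had 262 higher genes with the top 10% of cells, 202 lower with cells taken within 5 groups of depth, 203 lower with TMM, 267 and 201 with the mean of per-cell CPM, and 111 higher without shared barcodes.

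Among lists, entry kinases had 7 higher genes when thinned and 7 at 500 UMIs. Anaphase-promoting complex genes had 3 when thinned and 3 without cells above the 95th percentile of UMIs. Immediate early genes had 3 lower when thinned, 4 at 500 UMIs and 2 at 2-fold. At 2-fold, higher genes numbered 6 for kinetochore, 2 for chromosomal passenger, 11 for spindle motors and 1 for condensin, and 5 G1/S genes were lower. Lower p53 targets numbered 2 with the top 10% and with per-cell means, 3 with the top 20%, within groups of depth and with 5 score genes, and 0 with the thinned score, thinned counts, 500 UMIs and 2-fold. With the top 10%, 1 transcription factor and 1 heat shock gene were higher. Apart from the limits on counts and fold, the cause was not tested. Genes under 200 UMIs were compared only in these alternatives and as named genes.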

Other observations

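UMIs of interferon genes were concentrated in a few cells. Mitotic cells were 161 of the 1071 CAL51 cells and 32 of the 212 MDAMB468 cells compared. The numbers of cells below are too small to show a departure from these shares. In CAL51, 6 cells had at least 9 UMIs of IFIT1, 5 had at least 9 of IFIT2 and 4 had both, and 0 of these were mitotic. For ISG15, 2 of 16 such CAL51 cells were mitotic, with up to 37 UMIs, and for CCL5 1 of 7, with 16 UMIs. In MDAMB468, 1 of 6 such cells was mitotic for ISG15, with 40 UMIs, and 2 of 13 for PLSCR1. Also in MDAMB468, 1 cell held 488 of the 508 IFIT2 UMIs of the 212 cells compared. The same cell held 225 of 278 UMIs of IFIT1, 158 of 198 of IFIT3 and 97 of 103 of CCL5, a chemokine gene. It also held 210 of 219 UMIs of IFNB1 and 299 of 311 of IFNL1, which encode interferons, and it was not among the 32 mitotic MDAMB468 cells.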
